A study of Mus musculus with 46 samples.

Results

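The 10 genes described here were taken by name from the 25147 genes of the adjusted count table, in which all 10 had a row. They are Pla2g4a, which releases arachidonic acid, the cyclooxygenases Ptgs1 and Ptgs2, the PGE synthases Ptges and Ptges2, the receptors Ptger2, Ptger4 and Ptgfr, the uptake carrier Slco2a1, and Hpgd, which oxidises prostaglandins at their 15-hydroxyl group and so inactivates them. They were read in 46 libraries, each holding the polyadenylated RNA of 1 ovarian follicle. The mice were of the outbred CD-1 stock. The follicles grew for 8 days in alginate, 1 to a well, with recombinant FSH (10 mIU/ml), and were then taken out of the gel and given human chorionic gonadotropin (hCG, 1.5 IU/ml), a hormone that binds the luteinizing hormone receptor. The medium with hCG also held serum, epidermal growth factor (10 ng/ml) and again FSH (10 mIU/ml). Follicles were frozen at 0 h (9 follicles, all of batch 2), 1 h (10 of batch 1, 3 of batch 2), 4 h (10 of batch 1, 3 of batch 2) and 8 h (11, all of batch 1). No follicles kept without hCG are labelled, so each comparison is between times, and hCG, epidermal growth factor, serum and hours in the new medium cannot be told apart. A follicle cultured alone lacks the ovary around it. The labels tie no follicle to an animal, so the spread behind each p-value is that of single follicles.

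Prostaglandins are lipid signals made on demand inside cells. A phospholipase frees arachidonic acid from membranes, a cyclooxygenase turns it into an unstable intermediate, and a terminal synthase shapes that into prostaglandin E2 (PGE2) or a relative, which acts on receptors at cell surfaces. Uptake from outside the cell and oxidation inside it end the signal. In the ovary the surge of luteinizing hormone raises PGE2 in the follicle, and PGE2 is known for its part in the expansion of the cumulus around the oocyte and in the release of the oocyte.

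Libraries held 241442 to 5185044 counts. Follicles at 0 h had the deepest libraries (median 3286107) and those at 1 h the shallowest (median 730895), with medians of 1432395 for 4 h and 1755429 for 8 h. Levels are given as TPM, the length-corrected share of all transcripts in a library. A set of 9423 genes, 3332 of them counted in batch 1, had no count in the 6 libraries of batch 2 after 0 h. The 9423 genes took 16.2% to 52.2% of the TPM at 0 h, but no more than 0.0725% in every library from 1 h on. None of the 10 genes described here is in that set, but it lowers the TPM of every other gene at 0 h, so changes were tested on counts scaled by TMM factors. Summed TPM of 9 granulosa markers had medians of 40775, 44588, 40391 and 18095 at 0, 1, 4 and 8 h, while 8 oocyte markers had medians of 6.83, 17.1, 11.8 and 25.8. The granulosa sum was thus high and the oocyte sum low, but the 9 granulosa markers differed in level. Inha, Gja1 and Inhba had medians of 19883, 14502 and 5362 TPM at 0 h. Foxl2 had medians of 6.31, 1.16, 0.33 and 1.04 TPM at 0, 1, 4 and 8 h, and Amh of 0 at each of these times. In such whole-follicle libraries, fewer cells of a type and less RNA per cell cannot be told apart.

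Over the 8 h the inducible cyclooxygenase Ptgs2 and the breakdown enzyme Hpgd changed places, while the synthase Ptges fell. Ptges was the highest of the 10 genes in 7 of 9 follicles at 0 h and Hpgd in the other 2, and Ptges was highest in all 13 at 1 h. At 4 h Ptgs2 was highest in 11 of 13 and Pla2g4a in 2, and at 8 h Ptgs2 was highest in 7 of 11 and Pla2g4a in 4. Ptgs2 lay above Hpgd in 0 of 9 follicles at 0 h, 1 of 13 at 1 h, 13 of 13 at 4 h and 11 of 11 at 8 h. The 1 such follicle at 1 h, replicate 13 of batch 2, had 6 counts of Ptgs2 and 1 of Hpgd. The median of log2 of (Ptgs2 TPM + 1) over (Hpgd TPM + 1) was -5.76 at 0 h and -3.66 at 1 h, then 7.21 at 4 h and 4.46 at 8 h. In batch 2, the one batch with follicles from 0 h on, the same median was -5.76 at 0 h, -1.85 at 1 h and 4.77 at 4 h.

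**Figure D1:**
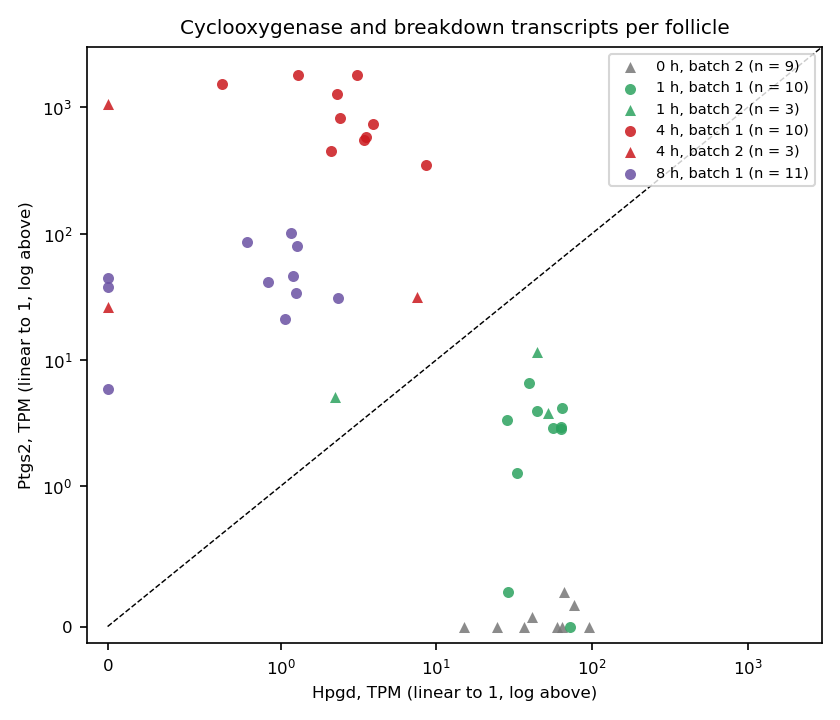
Ptgs2 TPM (vertical axis) against Hpgd TPM (horizontal axis), both linear to 1 and logarithmic above, with 1 point per follicle, coloured by time and shaped by batch; the dashed line marks equal TPM. All 9 follicles at 0 h and 12 of 13 at 1 h lie below the line, and all 13 at 4 h and 11 at 8 h lie above it.

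The stretches of DNA around the starts of these 2 genes are shown because, against 0 h and 1 h, Ptgs2 rose and Hpgd fell at 4 h and 8 h. Both run from 250 bases before to 30 bases after the start in RefSeq (GRCm38.p6), on the plus strand, for Ptgs2 at chr1:150099781-150100060 and for Hpgd at chr8:56294302-56294581. Capitals mark matches on either strand to the cAMP response element TGACGTCA or its core TGACG, the E box CACGTG, the AP-1 site TGANTCA, the C/EBP site TTNCGCAA, the GC box GGGCGG and the TATA box TATAAA.
Ptgs2: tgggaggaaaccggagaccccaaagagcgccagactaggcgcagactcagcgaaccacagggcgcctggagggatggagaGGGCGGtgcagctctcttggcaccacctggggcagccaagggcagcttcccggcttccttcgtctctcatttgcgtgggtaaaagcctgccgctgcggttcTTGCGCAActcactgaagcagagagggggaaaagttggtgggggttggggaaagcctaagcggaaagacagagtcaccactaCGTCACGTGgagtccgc
Hpgd: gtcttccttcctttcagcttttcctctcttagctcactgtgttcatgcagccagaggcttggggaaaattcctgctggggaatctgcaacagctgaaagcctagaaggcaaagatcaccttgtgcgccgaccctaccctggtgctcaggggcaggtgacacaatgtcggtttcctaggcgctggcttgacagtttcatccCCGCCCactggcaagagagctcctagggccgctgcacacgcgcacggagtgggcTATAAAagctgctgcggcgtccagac
Ptgs2 held a GC box 170 bases before the start, a C/EBP match 69 bases before it, and, from base 14 after it, TGACG on the minus strand overlapping an E box. Hpgd held a GC box 50 bases before its start and a TATA box from base 5 after it. The start of Hpgd in GENCODE lies 33 bases further downstream, and that of Ptgs2 is the same in both. Of 32851 RefSeq windows of 300 bases, 0.798% hold the C/EBP letters, 7.15% the E box, 20.8% TGACG, 13.6% the TATA box and 35.7% the GC box. These are matches of letters, not measured binding.

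Unless stated otherwise, values with an error are log2 fold changes ± SE of the later over the earlier time from edgeR's quasi-likelihood test, with times and batches as terms, and a gene is said to have risen or fallen at an adjusted p under 0.05 over the 8629 genes tested. The test gives no SE itself, so the SE is the absolute log2 fold change divided by the square root of the test's F statistic. Of the 10 genes, 7 passed the filter on low counts and were tested, and Ptgs1, Ptger2 and Ptgfr were not. With 0 h in batch 2 alone, the comparisons of 1 h and 4 h with 0 h lean most on the 3 batch 2 follicles of that time. The batch term is shared by all times and estimated from 1 h and 4 h together. So 4 h follicles also move the comparison of 1 h with 0 h, and 1 h follicles that of 4 h with 0 h. The comparison of 8 h with 0 h adds up differences within batches. All 4 h follicles of batch 1 were on plate 2, and those at 1 h and 8 h on plate 1. At 1 h against 0 h, 2 of the 7 genes rose and 0 fell, where 34.6% of all genes tested were called (12.4% higher, 22.2% lower). The median change was 0.10 over the 7 and -0.19 over all genes. At 4 h against 0 h, 4 rose and 2 fell (all genes: 54.2% called, 21.9% higher, 32.2% lower), and the medians were 1.47 and -0.12. At 8 h against 0 h, 4 rose and 2 fell (45.1% called, 17.5% higher, 27.6% lower), with medians of 1.61 and -0.15. At 4 h against 1 h, 3 rose and 2 fell (54.8% called, 26% higher, 28.9% lower), with medians of 0.65 and -0.06. At 8 h against 1 h, 3 rose and 2 fell (49.1% called, 23.2% higher, 25.9% lower), with medians of 0.48 and -0.02. At 8 h against 4 h, 0 rose and 5 fell (41.3% called, 19.8% higher, 21.6% lower), with medians of -0.95 and 0.0046. An alternative replaced batch by 3 library sets, namely both plates of batch 1 and batch 2, so that comparisons with 4 h rest on batch 2. Under it none of the 7 was called at 8 h against 4 h by edgeR (smallest adjusted p = 0.0617, for Ptges), while batch 1 alone and DESeq2 with the batch term each called 5.

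**Figure D2:**
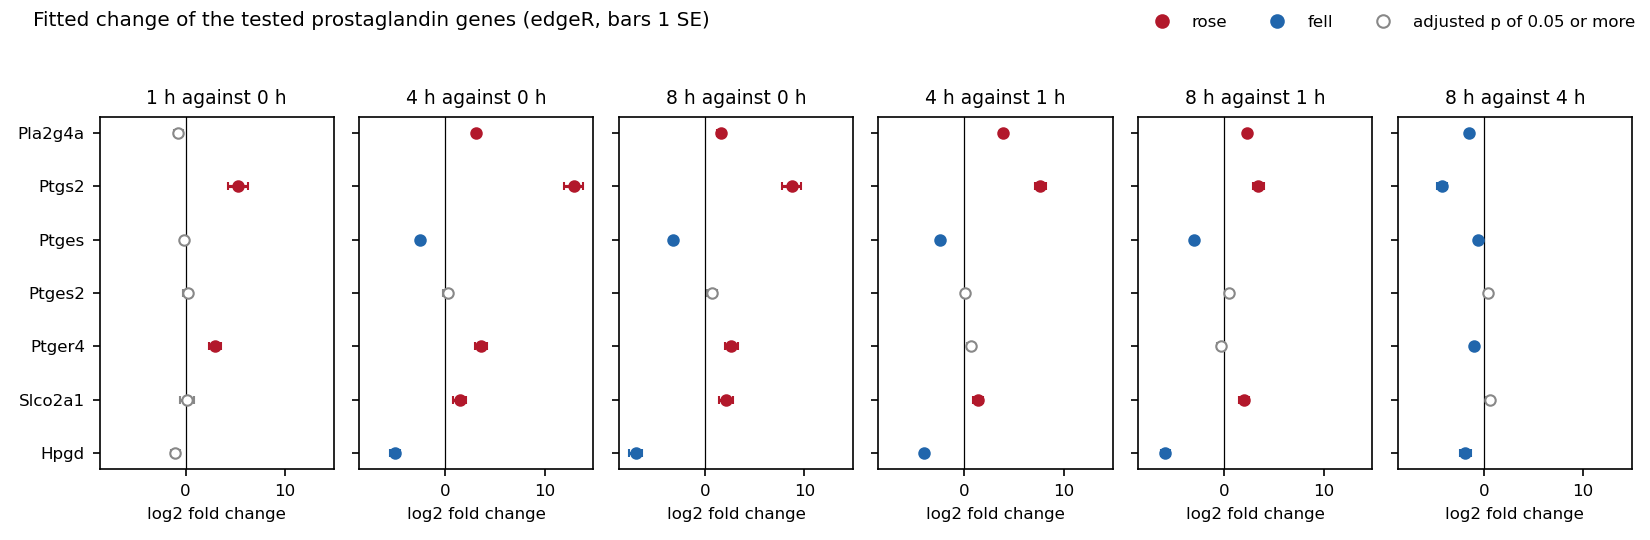
Log2 fold changes (points) with 1 SE (bars) of the 7 tested genes in 6 comparisons of times, later over earlier. Filled points passed an adjusted p of 0.05, red for genes that rose and blue for genes that fell. Ptgs2 and Hpgd lie on opposite sides of 0 in the comparisons of 4 h and 8 h with 0 h and 1 h, and at 8 h against 4 h the 5 called genes all lie below 0.

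Release of arachidonic acid comes first. Pla2g4a encodes cytosolic phospholipase A2 alpha (ENSMUSG00000056220.14, chromosome 1 from 149829618 to 149961290, minus strand, GRCm38), and it was read in every follicle. Its TPM ranged from 3.34 to 14.1 at 0 h (median 8.46, n = 9), from 1.60 to 14.4 at 1 h (median 5.26, n = 13), from 32.6 to 199 at 4 h (median 111, n = 13) and from 26.5 to 78.6 at 8 h (median 34.8, n = 11). No follicle at 4 h or 8 h fell within the range of 0 h or 1 h. It rose by 3.86 ± 0.30 at 4 h against 1 h (edgeR adjusted p = 4.16e-15), a 14.5-fold difference, and by 3.13 ± 0.36 at 4 h against 0 h (edgeR adjusted p = 3.22e-10). From 4 h it fell by 1.52 ± 0.26 at 8 h (edgeR adjusted p = 6.65e-06; -1.74 with the library sets, edgeR adjusted p = 0.111), and at 8 h it remained 2.34 ± 0.32 above 1 h. At 1 h against 0 h it did not pass (-0.72 ± 0.43, edgeR adjusted p = 0.185). The 4 h against 1 h step was 4.04 ± 0.86 in batch 2 alone and 3.86 ± 0.27 in batch 1 alone. Without 4 h replicate 11, which had 199 TPM, the 8 h against 0 h rise was no longer called (0.95 against 1.61 in all libraries, edgeR adjusted p = 0.0758), as with the library sets (1.44, edgeR adjusted p = 0.130), and the 1 h against 0 h difference then was (-1.31, edgeR adjusted p = 0.0176).

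Ptgs2 encodes the inducible cyclooxygenase (ENSMUSG00000032487.8, chromosome 1 from 150100031 to 150108227, plus strand, GRCm38). It was almost unread at 0 h, with 5 counts in 9 follicles and 0 to 0.25 TPM. At 1 h it had 0 to 6.52 TPM in the 10 follicles of batch 1 (median 2.93) and 11.5, 3.80 and 5.10 TPM in the 3 of batch 2. At 4 h it had 352 to 1816 TPM in batch 1 (median 780.3) and 1052, 31.2 and 26.3 TPM in batch 2, and at 8 h it had 5.90 to 101.6 TPM (median 41.5, n = 11). Every follicle at 4 h and 10 of 11 at 8 h lay above every follicle at 1 h, and 8 h replicate 3 at 5.90 TPM lay within the 1 h range. Ptgs2 rose by 5.28 ± 0.99 at 1 h against 0 h (edgeR adjusted p = 4.68e-05) and by 12.91 ± 0.93 at 4 h against 0 h (edgeR adjusted p = 2.45e-16). With limma on log2(TPM + 1), a scale that understates changes of low genes, the 1 h difference did not pass (1.14, limma adjusted p = 0.192). As the folds rest on 5 counts at 0 h, the ratio of pooled counts at equal depth is given with its 95% exact counting interval: it was 55.1 (22.8 to 173) at 1 h, 12339 (5287 to 38004) at 4 h and 668 (286 to 2058) at 8 h, each over 0 h. These intervals take the adjusted counts as if they were reads counted, and leave out the spread among follicles. Ptgs2 fell by 4.18 ± 0.49 at 8 h against 4 h (edgeR adjusted p = 1.86e-09), an 18.2-fold difference, and stayed 3.45 ± 0.55 above 1 h (edgeR adjusted p = 6.57e-07). With the library sets, the 8 h against 4 h value was -1.87 and did not pass (edgeR adjusted p = 0.242).

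The 2 low follicles at 4 h, replicates 12 and 13 of batch 2, had total counts of 1357085 and 1069107, not the lowest of the study, and 12 counted 13033 genes and 13 counted 12389. Without both of them, an alternative chosen after the data were seen, Ptgs2 rose by 8.16 ± 0.44 at 4 h against 1 h, compared with 7.63 ± 0.57 in all libraries. Within batches the step was 5.87 ± 1.48 for batch 2 (edgeR adjusted p = 0.0198) and 8.34 ± 0.54 for batch 1. The difference of the steps, batch 2 minus batch 1, was -2.57 ± 1.17 for Ptgs2 and did not pass (edgeR adjusted p = 0.213, unadjusted 0.0373). Those of Pla2g4a, Ptges and Hpgd, the other members tested there, did not pass either, and DESeq2 called 0 of the 4. Limma on log2(TPM + 1) called that of Ptgs2 (-4.25, limma adjusted p = 0.0192) and no other member. Of 5820 genes 5.09% were called (3.2% higher, 1.89% lower). Without 4 h replicate 11, whose Ptgs2 lay in the range of batch 1, the difference for Ptgs2 was -6.44 and passed (edgeR adjusted p = 0.000410). After 0 h Ptgs2 varied more among follicles of 1 time than most genes: its SD of log2 CPM (a count scaled to library size) was 1.38 at 1 h and 0.80 at 4 h in batch 1 and 1.15 at 8 h, above 95.7%, 81.4% and 97.8% of the tested genes, whose median SDs were 0.56, 0.46 and 0.39. At 0 h, on 5 counts, its SD was 0.30, above 13.4% of them. Its SD at 1 h rests on 0 to 11 counts per follicle, so counting error is part of it. Ptges2, with 0 to 10 counts in the same follicles, had an SD above 93.3% of the tested genes. The tested genes were not matched to Ptgs2 in level.

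**Figure D3:**
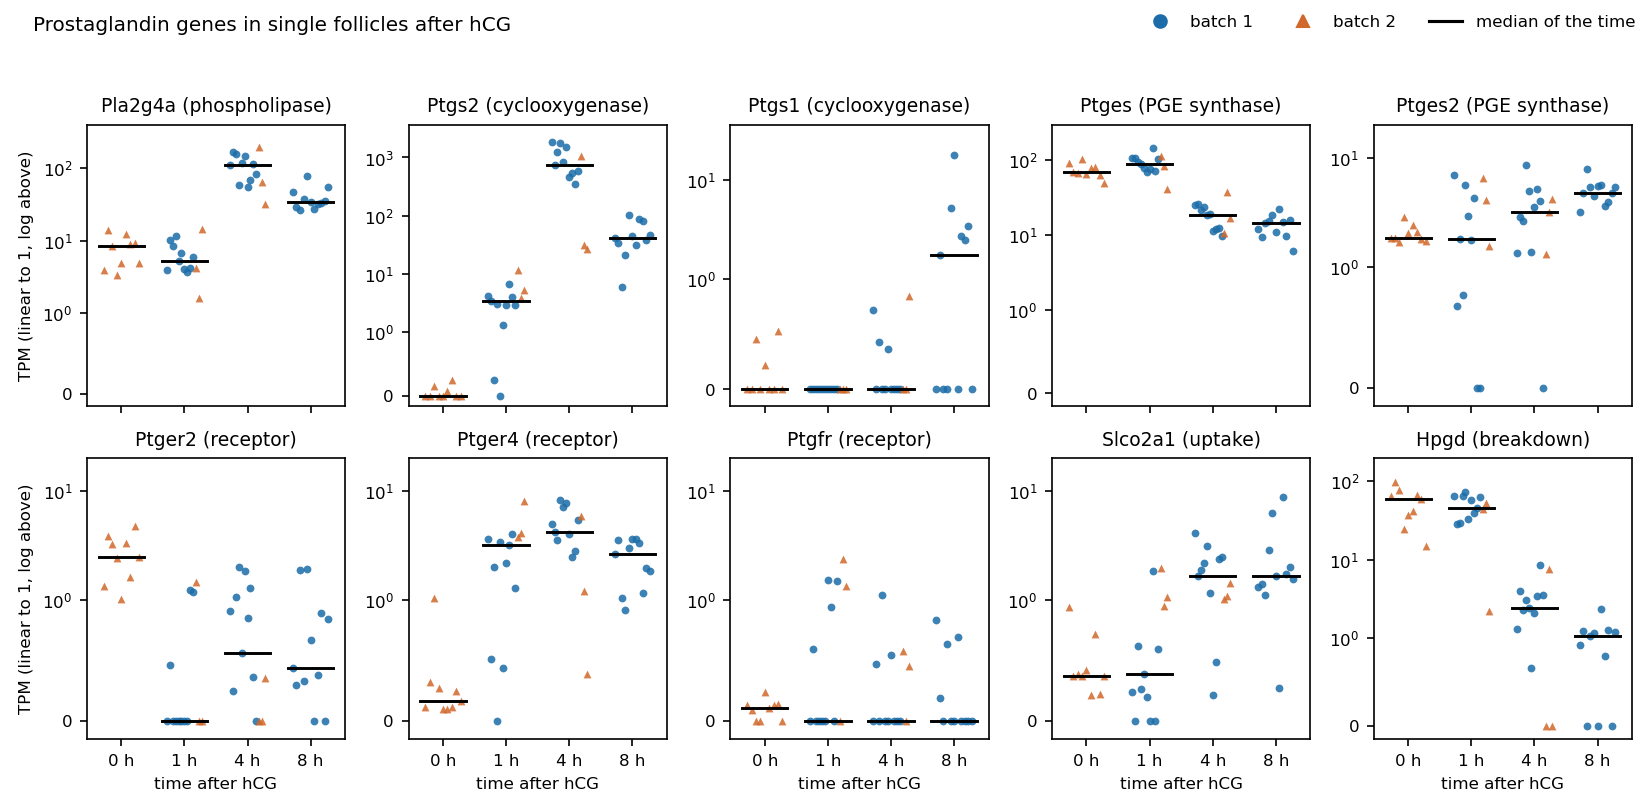
TPM of the 10 genes (vertical axes, linear to 1 and logarithmic above) at 0, 1, 4 and 8 h after hCG, with 1 point per follicle, circles for batch 1 and triangles for batch 2, and bars at the median of each time. Ptgs2 and Pla2g4a peak at 4 h, Ptges and Hpgd are high at 0 h and 1 h and low at 4 h and 8 h, and Ptgs1 has TPM above 1 at 8 h alone.

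Ptgs1 encodes the cyclooxygenase that many tissues make at rest (ENSMUSG00000047250.13, chromosome 2 from 36230426 to 36252272, plus strand, GRCm38). It had 4 counts in the 9 follicles at 0 h, 0 in the 13 at 1 h, 4 in the 13 at 4 h and 64 in the 11 at 8 h. At 8 h the counts lay in 6 follicles, whose TPM were 1.75, 5.23, 18.0, 2.69, 2.48 and 3.44, and the other 5 had 0. At equal depth the pooled counts at 8 h were at least 8.42-fold higher than at 1 h, with 3 counts over the group as the floor, and 17.7 times those at 4 h (95% exact counting interval 6.58 to 66.9). In the fit with no filter on low counts it rose by 5.46 ± 1.29 at 8 h against 1 h (edgeR adjusted p = 0.00126) and by 3.71 ± 0.92 at 8 h against 4 h (edgeR adjusted p = 0.00331), while 8 h against 0 h did not pass (4.03 ± 2.43, edgeR adjusted p = 0.251). Of its 64 counts 34 came from replicate 6. Ptgs2 still made up a median of 97.0% of the summed TPM of the 2 cyclooxygenases at 8 h, with a lowest value of 71.3%. Exons of Ptgs1 overlap a transcript on the other strand, Gm43621, and as the libraries are not stranded the 2 cannot be told apart.

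Ptges encodes the microsomal PGE synthase (ENSMUSG00000050737.13, chromosome 2 from 30889471 to 30929863, minus strand, GRCm38), the synthase usually paired with Ptgs2. At 4 h and 8 h, against both 0 h and 1 h, it fell and Ptgs2 rose, and at 8 h against 4 h both fell. Its TPM was 49.1 to 105 at 0 h (median 69.5), 41.7 to 148 at 1 h (median 90.0), 9.83 to 37.2 at 4 h (median 18.9) and 6.11 to 22.7 at 8 h (median 14.5), so no follicle at 4 h or 8 h reached the lowest at 0 h or 1 h. It fell by 2.42 ± 0.18 at 4 h against 1 h (edgeR adjusted p = 1.23e-15), 5.37-fold, by 1.94 ± 0.44 in batch 2 alone, and by 3.18 ± 0.31 at 8 h against 0 h (edgeR adjusted p = 5.10e-12). The fall of 0.62 ± 0.20 at 8 h against 4 h (edgeR adjusted p = 0.0112) was lost with limma on log2(TPM + 1) (-0.44, limma adjusted p = 0.0979) and with the library sets, where the value was larger (-1.10, edgeR adjusted p = 0.0617). At 1 h against 0 h the change was -0.14 ± 0.25 (edgeR adjusted p = 0.698), and its sign depends on the scale. The 1 h median of 90.0 TPM lies above the 69.5 at 0 h as deposited, but below the 119 that 0 h has with the 9423 genes left out of the TPM.

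Ptges2, another PGE synthase (ENSMUSG00000026820.5, chromosome 2 from 32395896 to 32405772, plus strand, GRCm38), passed in none of the 6 comparisons. Its TPM medians were 1.82, 1.79, 3.19 and 4.75 at 0, 1, 4 and 8 h, and at 8 h all 11 follicles lay between 3.17 and 7.90. Its counts summed to 46 over the 13 follicles at 1 h. With the 9423 genes left out of the TPM the 0 h median was 3.11. The change at 8 h against 1 h was 0.48 ± 0.34 (edgeR adjusted p = 0.244), but limma on log2(TPM + 1) called it (0.99, limma adjusted p = 0.00663). At 8 h against 0 h the change was 0.68 ± 0.49 (edgeR adjusted p = 0.259), and 2 of 18 alternatives called it. These were limma on log2(TPM + 1) (1.31, limma adjusted p = 0.0191) and edgeR without the batch term (0.69, edgeR adjusted p = 0.0409). As Ptges fell, its share of the summed TPM of Ptges and Ptges2 had medians of 97.3%, 97.2%, 89.0% and 74.3% at 0, 1, 4 and 8 h, and a lowest value of 53.4% at 8 h. The share leaves out the cytosolic PGE synthase Ptges3, which is not 1 of the 10 genes. Its medians were 244, 357, 564 and 401 TPM at 0, 1, 4 and 8 h, above those of Ptges at each time.

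The receptors were low throughout. Ptger4 encodes the PGE2 receptor EP4, which raises cyclic AMP (ENSMUSG00000039942.15, chromosome 15 from 5206661 to 5244187, minus strand, GRCm38). It had 0.095 to 1.05 TPM at 0 h (median 0.16), 0 to 8.12 at 1 h (median 3.23), 0.39 to 8.31 at 4 h (median 4.20) and 0.92 to 3.66 at 8 h (median 2.63). Its counts summed to 17 over the 9 follicles at 0 h and to 50 over the 13 at 1 h. It rose by 2.95 ± 0.60 at 1 h against 0 h (edgeR adjusted p = 0.000166), by 3.61 ± 0.57 at 4 h against 0 h (edgeR adjusted p = 7.38e-07) and by 2.65 ± 0.64 at 8 h against 0 h (edgeR adjusted p = 0.000721). Batch 2 alone gave 3.87 ± 0.73 at 1 h, when its 3 follicles had 3.80, 4.15 and 8.12 TPM, and 2.98 ± 0.66 at 4 h, when they had 5.95, 1.20 and 0.39 TPM. The fall of 0.95 ± 0.35 at 8 h against 4 h (edgeR adjusted p = 0.0236) did not pass with limma on log2(TPM + 1) (-0.57, limma adjusted p = 0.161) and turned to 0.94 with a term for the library sets (edgeR adjusted p = 0.474). The 4 h against 1 h change was 0.65 ± 0.37 (edgeR adjusted p = 0.134) in all libraries, -0.89 ± 0.81 in batch 2 alone and 1.22 ± 0.37 in batch 1 alone (edgeR adjusted p = 0.00556), and it passed without 4 h replicate 13 (0.81, edgeR adjusted p = 0.0475). Ptger4 shares exons with Ttc33 on the other strand, which had medians of 2.58, 2.95, 3.62 and 4.62 TPM at 0, 1, 4 and 8 h, so reads of these genes cannot be fully told apart.

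Ptger2 encodes the other PGE2 receptor that raises cyclic AMP, EP2 (ENSMUSG00000037759.6, chromosome 14 from 44988195 to 45003820, plus strand, GRCm38), and it moved the other way from Ptger4 in the first hour. It was read in all 9 follicles at 0 h, at 1.01 to 4.76 TPM with 219 counts in all. It was read in 4 of 13 follicles at 1 h (6 counts), 10 of 13 at 4 h (45 counts) and 9 of 11 at 8 h (33 counts), with medians of 0, 0.56 and 0.43 TPM. At equal depth the pooled counts relative to 0 h were 0.0763 at 1 h (95% exact counting interval 0.0277 to 0.169), 0.204 at 4 h (0.145 to 0.283) and 0.166 at 8 h (0.111 to 0.240). With no filter on low counts it fell by 4.30 ± 0.88 at 1 h (edgeR adjusted p = 0.000313), 3.01 ± 0.90 at 4 h (edgeR adjusted p = 0.00768) and 3.35 ± 0.99 at 8 h (edgeR adjusted p = 0.0102), each against 0 h. In batch 2 alone the 1 h difference did not pass (-2.33 ± 0.84, edgeR adjusted p = 0.0659) and the 4 h fall did (-4.94 ± 0.95, edgeR adjusted p = 0.00117). Ptger2 overlaps Gm17173 and Gm49364 on the other strand. Ptgfr, the receptor for prostaglandin F2 alpha, had 7, 9, 12 and 8 counts in all at 0, 1, 4 and 8 h, and passed in no comparison even with no filter. At equal depth the pooled counts at 1 h were 3.58 times those at 0 h (95% exact counting interval 1.19 to 11.3, counting error only), where the fit with no filter gave 2.31 ± 1.02 (edgeR adjusted p = 0.108). The intervals of the other 5 ratios included 1.

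Slco2a1 encodes the carrier that brings prostaglandins into cells (ENSMUSG00000032548.14, chromosome 9 from 102988712 to 103096002, plus strand, GRCm38). Its TPM was 0.22 to 0.94 at 0 h (median 0.37), 0 to 1.99 at 1 h (median 0.39), 0.21 to 4.13 at 4 h (median 1.68) and 0.28 to 8.93 at 8 h (median 1.68), so the times overlapped. Its counts summed to 72 over the 9 follicles at 0 h and to 26 over the 13 at 1 h. It rose by 2.01 ± 0.52 at 8 h against 1 h (edgeR adjusted p = 0.00107), both on plate 1 of batch 1 but for 3 follicles, and by 2.10 ± 0.72 at 8 h against 0 h (edgeR adjusted p = 0.0147). The rises at 4 h were less secure. That of 1.47 ± 0.64 against 0 h (edgeR adjusted p = 0.0480) was not called in batch 2 alone (0.90 ± 0.44, edgeR adjusted p = 0.119), without 1 h replicate 11 (1.19), 1 h replicate 13 (1.41) or 4 h replicate 13 (1.62), or without the 5 libraries at 0 h marked _ds in the labels (1.35). That of 1.37 ± 0.50 against 1 h (edgeR adjusted p = 0.0192) was -0.29 ± 0.60 in batch 2 alone and 2.09 ± 0.67 in batch 1 alone. With the library sets, neither 4 h difference passed, at 0.82 against 0 h (edgeR adjusted p = 0.323) and -0.35 against 1 h (edgeR adjusted p = 0.835). The call at 8 h against 0 h was lost without 1 h replicate 11 (1.78, edgeR adjusted p = 0.0518) and without the _ds libraries (2.00, edgeR adjusted p = 0.0585). The 2 highest follicles at 8 h, replicates 8 (8.93 TPM) and 5 (6.37 TPM), also had the highest summed TPM of 6 leukocyte markers, 48.2 and 64.3, against a median of 9.01 over the 11. Replicate 8 had 367 TPM of 9 theca and stroma markers, against a median of 33.4. Endothelial cells can also make Slco2a1. The 6 endothelial markers summed to 4.55 to 16.7 TPM at 8 h (median 10.3) and to 1.76 to 48.1 at 1 h (median 18.3). Of the 2 tested endothelial markers 0 rose and 1 fell at 8 h against 1 h, when the 1 leukocyte marker tested also fell, and of 7 theca and stroma markers 0 rose and 5 fell. The leukocyte markers summed to medians of 15.8, 29.0, 9.47 and 9.01 TPM at 0, 1, 4 and 8 h, with highest values of 537, 275, 80.0 and 64.3. The 537 was mostly Itgam, which had up to 507 TPM at 0 h but a median of 0 there. Itgam had 1, 1 and 3 counts in all at 1, 4 and 8 h. Lyz2 reached 128, 268, 76.9 and 58.4 TPM at 0, 1, 4 and 8 h. Ptprc, the leukocyte marker that defines these cells, had a median of 0 TPM at all 4 times and up to 1.58 TPM at 8 h. The part of these cells in the rise was not tested.

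Hpgd encodes 15-hydroxyprostaglandin dehydrogenase, which starts the breakdown of PGE2 (ENSMUSG00000031613.9, chromosome 8 from 56294585 to 56321043, plus strand, GRCm38). Its TPM was 15.03 to 95.8 at 0 h (median 59.3). At 1 h it was 28.6 to 72.5 in batch 1 (median 50.5) and 44.2, 52.3 and 2.25 in batch 2. At 4 h it was 0.66 to 8.57 in batch 1 (median 2.75) and 0, 7.57 and 0 in batch 2. At 8 h it was 0 to 2.33 (median 1.07). The 4 h and 8 h follicles all lay below those at 0 h, and below all at 1 h but replicate 13, which stood apart at 2.25 TPM. That value rests on 1 count in a library of 379640 counts. Hpgd fell by 4.05 ± 0.35 at 4 h against 1 h (edgeR adjusted p = 1.12e-13), 16.5-fold, and by 6.94 ± 0.64 at 8 h against 0 h (edgeR adjusted p = 1.69e-12). The step was 3.74 ± 1.15 down in batch 2 alone (edgeR adjusted p = 0.0473) and 4.06 ± 0.29 down in batch 1 alone. A further fall of 1.85 ± 0.53 at 8 h against 4 h (edgeR adjusted p = 0.00409) rests on 0 to 22 counts per follicle at 4 h and 0 to 4 at 8 h, and with the library sets it did not pass (-2.15, edgeR adjusted p = 0.137). The difference at 1 h against 0 h did not pass (-1.04 ± 0.46, edgeR adjusted p = 0.0709) but did without 4 h replicate 12 (-1.37, edgeR adjusted p = 0.0168). Granulosa markers fell over the same times: of 8 tested, 6 fell at 4 h against 1 h, where 28.9% of all genes did, and 8 fell at 8 h against 0 h, where 27.6% did. At 1 h against 0 h 1 rose and 2 fell, and at 8 h against 4 h 1 rose and 5 fell. Of 7 theca and stroma markers 5 also fell at 4 h against 1 h. The granulosa markers had summed TPM of 26158 to 56850 at 4 h and 13043 to 27037 at 8 h, against 29413 to 56820 at 0 h. The 0 h sums are lowered by the 9423 genes described above. On counts, 6 of the 8 tested fell at 4 h against 0 h, where 32.2% of all genes did. None of the 9 markers was at 0 in every follicle of a time, but Amh had 1 count in all at 0 h and 1 at 8 h. The part of granulosa cells in the falls of Hpgd and Ptges was not tested.

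Whether follicles with more Ptgs2 had less Hpgd at a given time was asked in batch 1, in 3 relations of log2 CPM. At 1 h Pearson's r was -0.011 (n = 10, permutation p = 0.972) and Spearman's rho 0.055 (permutation p = 0.892). At 4 h r was -0.74 (n = 10, permutation p = 0.00975, 0.0292 after Benjamini-Hochberg adjustment) and rho -0.75 (permutation p = 0.0180, adjusted 0.0540). Without the 2 follicles farthest from the median of Ptgs2 the 4 h r was -0.50, so it rests in part on them, and Hpgd had 1 to 22 counts per follicle there. At 8 h r was 0.38 (n = 11, permutation p = 0.243), rho 0.14 (permutation p = 0.691), and r -0.07 without the 2 farthest.

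Likeness to other genes was read as Pearson's r of log2 CPM over the 31 follicles of batch 1, which share times and plates, among 6809 genes with a mean of at least 3. The genes most like Ptgs2 were Fam110c (r = 0.95), the interleukin 1 receptor Il1r1 (0.95), the lipoprotein receptor Scarb1 (0.93), the peptidase Prep (0.93) and the kinase Map2k3 (0.93). Fam110c had median TPM of 0.64, 4.86, 243 and 49.4 at 0, 1, 4 and 8 h, and Il1r1 of 4.50, 5.02, 68.8 and 15.7. The genes most like Hpgd were Herpud1, of the endoplasmic reticulum (r = 0.97), cystathionine beta-synthase Cbs (0.96), the exchange factor Arhgef28 (0.95), the transcription factor Mef2c (0.95) and the histone gene H3f3b (0.95). Cbs had medians of 96.5, 94.6, 3.67 and 0.83 TPM at 0, 1, 4 and 8 h, whereas Herpud1 had 58.7, 261, 16.4 and 7.51 and was highest at 1 h.

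Of 38 other gene names listed for the pathway, some of them second names of the same gene, 36 had a row in the count table and 18 were tested. At 4 h against 1 h, 7 of the 18 rose and 5 fell (all genes: 54.8% called, 26% higher, 28.9% lower). Of the same 18, 8 rose and 5 fell at 8 h against 1 h (49.1% called, 23.2% higher, 25.9% lower), and at 8 h against 4 h, 6 rose and 4 fell (41.3% called, 19.8% higher, 21.6% lower). In arachidonate handling, Acsl4, which charges free arachidonic acid with coenzyme A, rose by 3.75 ± 0.22 at 4 h against 1 h (edgeR adjusted p = 7.72e-19). It had medians of 10.2, 37.9, 505 and 565 TPM at 0, 1, 4 and 8 h. At 8 h against 4 h it did not pass (0.12 ± 0.21, edgeR adjusted p = 0.701), when Pla2g4a fell. Lpcat3, which puts polyunsaturated fatty acids into phospholipids, rose by 1.15 ± 0.18 at 8 h against 4 h. Among terminal synthases, Akr1b7, an aldo-keto reductase that can make prostaglandin F2 alpha, had medians of 0, 0, 25.2 and 52.4 TPM and rose by 6.23 ± 0.78 at 4 h against 1 h (edgeR adjusted p = 2.75e-09). Its relative Akr1b8 rose by 1.92 ± 0.36, and Akr1c14, a reductase of steroids, fell by 4.15 ± 0.37 (edgeR adjusted p = 1.51e-13). The medians of Akr1c14 were 457, 252, 16.0 and 25.8 TPM at 0, 1, 4 and 8 h. Cytosolic PGE synthase Ptges3 rose by 0.41 ± 0.10 at 4 h against 1 h and fell by 0.51 ± 0.10 at 8 h against 4 h.

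The 1 other receptor tested was Ptger3, which encodes the receptor EP3 that lowers cyclic AMP, and it rose by 3.07 ± 0.80 at 8 h against 0 h (edgeR adjusted p = 0.00161), with medians of 0.26, 1.27, 1.55 and 3.52 TPM at 0, 1, 4 and 8 h. Ptger3 also rose at 1 h and at 4 h against 0 h. It passed in no comparison among 1 h, 4 h and 8 h. In transport and breakdown, the organic anion carrier Slco4a1 rose by 4.84 ± 0.66 at 4 h against 1 h (edgeR adjusted p = 2.66e-08), its relative Slco3a1 fell by 0.63 ± 0.24, and Zadh2, a prostaglandin reductase that acts after Hpgd, fell by 1.57 ± 0.17 (edgeR adjusted p = 4.08e-11). Ptgr2, another such reductase, is 1 of the 9423 genes with no count in batch 2 after 0 h: it had 3162 to 17142 TPM at 0 h and at most 2.19 TPM in any later follicle, with at most 3 counts. Pla2g4c, a phospholipase in the same set, had up to 1155 TPM at 0 h and at most 1.22 later. For both, the change over time and the difference between library sets cannot be told apart, and Ptgr2 is 1 of the 5 counted above as lower at 4 h against 1 h (-1.35 ± 0.48), on 10 counts at each time.

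**Figure D4:**
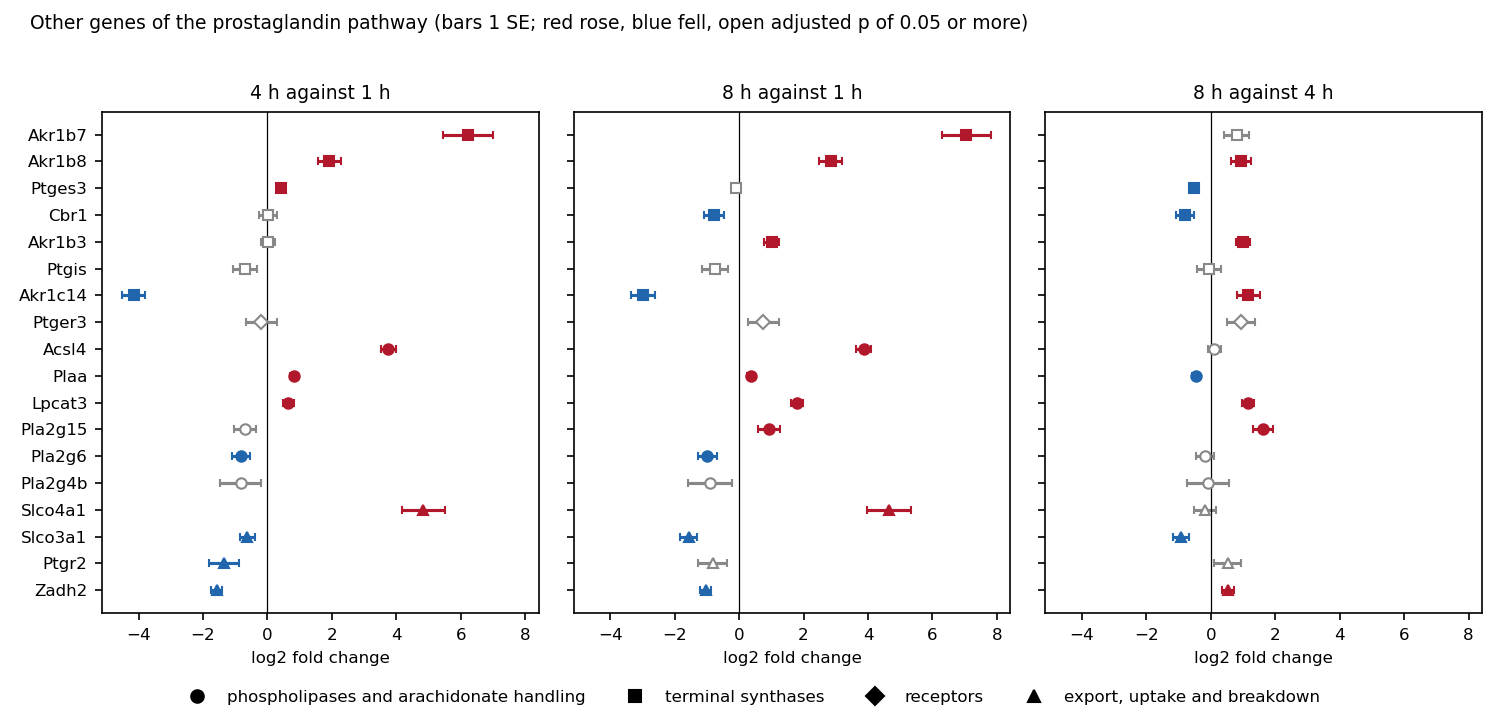
Log2 fold changes (points) with 1 SE (bars) of the 18 other pathway genes tested, at 4 h against 1 h, 8 h against 1 h and 8 h against 4 h, with shapes for the role of each gene. Red points rose and blue points fell at an adjusted p under 0.05, and open points did not pass. At 4 h and at 8 h against 1 h, Akr1b7, Slco4a1 and Acsl4 lie highest and Akr1c14 lowest.

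Against 0 h, the authors' deposited table gives signed fold changes of 56.3, 11540 and 653 for Ptgs2 at 1, 4 and 8 h, and of -1.51, -25.6 and -88.1 for Hpgd. For Ptger2 the authors' deposited table gives -12.2, -4.96 and -5.71, and for Ptgs1 at 8 h 15.9 with an unadjusted p of 0.00328. For Ptgfr at 1 h the authors' deposited table gives 3.99 with an unadjusted p of 0.0422, and for Ptges2 at 8 h 1.60 with an unadjusted p of 0.0122.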

How the data were processed

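Single follicles were sequenced with Smart-Seq2 and Nextera XT, per the labels' protocols, a method that keeps no strand. HISAT2, Partek, DESeq2 and GRCm38 are named in the submitters' processing notes, with versions not given in the sources used here. The authors deposited a table of counts per gene, adjusted for batch with ComBat-seq per its name, a table of TPM, and a table of signed fold changes and p-values against 0 h. The settings of the adjustment, and whether differences between times were kept in it, are not stated in the sources used here. In the count table and in the TPM table, 10 columns match no described sample and were not used.

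Counts were tested with edgeR 4.0.16 in R 4.3.3: TMM factors, filterByExpr on the 4 times (minimum count 10), time and batch as terms, 46 libraries, and Benjamini-Hochberg adjustment over 8629 genes. The difference of the 4 h against 1 h step between batches was an interaction over 5820 genes. The count script was also run on simulated counts with planted changes at 4 h and a shift between batches. The simulation held no ComBat-seq adjustment, no difference between plates and no genes missing from batch 2 after 0 h. It therefore says nothing of how the fit handles these. DESeq2 1.42.0 and limma 3.58.1 on log2(TPM + 1) and log2(TPM + 0.1), for genes with a mean TPM of at least 1, were alternatives. Correlations used log2 CPM (prior count 2) and 100000 resamples, two-sided. Pooled counts were compared at TMM-scaled depth with 95% exact intervals that, like the floor of 3 counts, cover counting error only. They treat the adjusted counts as reads counted, so any error of the adjustment is left out. Python 3.11.15, scipy 1.17.1 and matplotlib 3.10.9 were used. Promoters came from RefSeq and gene positions from GENCODE, both on GRCm38.

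The 10 genes are named in every comparison whatever their result. Other pathway genes and marker lists were counted by direction, and the 5 genes with the highest r were named as most like Ptgs2 and Hpgd. The members, lists and tests were chosen with earlier results of these data known. The coefficient of biological variation over genes was 34%.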

Additional observations from a re-analysis of the deposited data

Results flagged for a closer look

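At 0 h the highest Ptger4 value, 1.05 TPM from 5 counts in replicate 3, lay apart from the other 8 follicles, with a gap to the next of 0.527 of the whole range. Dixon's limit for 9 samples is 0.493. Chance alone passes this limit in about 1 in 20 groups, and this was the 1 case among 29 combinations of gene and group examined. Replicate 3 lay below the median of 1 h, 4 h and 8 h follicles.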

How the results depend on the processing

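Of 550 values that alternatives gave for the 29 called changes, 517 kept direction and call, 30 lost the call and 3 reversed. Of 296 values for the 17 changes not called, 256 stayed so, 12 passed and 28 changed sign. The reversals of called changes were those of Slco2a1 at 4 h against 1 h in batch 2 alone (-0.29) and with the library sets (-0.35), and of Ptger4 at 8 h against 4 h with the library sets (0.94). With the library sets no member was called at 8 h against 4 h, and limma on either TPM scale called 3 there, against 5 in edgeR with the batch term. Limma on log2(TPM + 1) called 1 member at 1 h against 0 h, and Ptgs2 (1 member) in the difference of the steps between batches, where leaving out single libraries gave 0 to 1. The median balance of Ptgs2 and Hpgd was -8.24 at 0 h and 5.85 at 8 h with a pseudocount of 0.1, and 5.75 at 8 h on log2 CPM. The cause of these changes was not tested.

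The replicate numbers did not pair the follicles: of 62 pairs with the same number 10 had a correlation of deviations over 0.1 (range -0.202 to 0.245), and 7 of 46 libraries correlated best with their own number. With the replicate block, 1 member was called at 1 h, 3 at 4 h and 1 at 8 h against 0 h, and 355, 1479 and 852 genes, against 2985, 4673 and 3892 without it. Genes called at 1 h against 0 h were 1879 in batch 2 alone. At 4 h against 1 h they were 1242 in batch 2 alone and 2054 with the library sets, against 4733. At 8 h against 4 h they were 1446 with the library sets, against 3567, and DESeq2 called 492 differences between batches, against 296.

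Among changes not called, other signs were given as follows. Ptger4 at 4 h against 1 h had -0.89 in batch 2 alone and with the library sets. At 8 h against 1 h it had 0.11 in batch 1 alone, 0.26 and 0.013 in limma on log2(TPM + 0.1) and log2(TPM + 1), 0.049 with the library sets and 0.011 without 4 h replicates 12 and 13. Ptges at 1 h against 0 h had 0.19 in both limma fits, 1.03 with the block, and -0.37 to 0.065 when single libraries were left out. Ptges2 had -0.0048 and -0.092 at 4 h against 0 h in batch 2 alone and with the library sets, and -0.68 and -0.74 at 4 h against 1 h. Leaving out single libraries gave Ptges2 -0.16 to 0.46 at 1 h against 0 h and -0.0019 to 0.25 at 4 h against 1 h. Slco2a1 at 1 h against 0 h had -0.070 without the _ds libraries and -0.58 to 0.33 without single libraries. For the difference of the steps between batches, leaving out single libraries gave -4.56 to 0.93 for Hpgd, -0.97 to 1.13 for Pla2g4a and -0.069 to 0.92 for Ptges, and Pla2g4a had -0.18 in limma and -0.025 with the block. On log2(TPM + 1), r at 1 h was 0.025.

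The balance of all genes differed between edgeR and limma, which differ in scale, test and filter. Higher genes were 47.3% of those called at 8 h against 1 h in edgeR (8629 tested) and 72.1% and 69.9% in limma (11834 tested) with 0.1 and 1 added, when the median change of all genes was -0.02, 0.39 and 0.22. Depth limits Ptgs1, Ptger2, Ptgfr, and Hpgd after 1 h, which rest on few counts per follicle. Among other members tested, Ptger4 at 0 h and 1 h, and Slco2a1 and Ptges2 at 1 h, also rest on few counts per follicle. Their medians there were 1 and 4 counts for Ptger4, 1 for Slco2a1 and 3 for Ptges2. Ptgs2 at 0 h and 1 h had medians of 0 and 6 counts.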
